A study of Mus musculus with 16 samples.

Results

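The 6 Tssk genes, Tssk1 to Tssk6, were examined as 6 of 21938 protein-coding genes of the 19 autosomes and both sex chromosomes. They were taken by name from the GENCODE vM21 annotation of the mm10 mouse genome, and the naming rule used no measured value. In each library, distinct fragments with a midpoint within 1 kb of the gene start were counted, as were those over the gene body. Levels were expressed as fragments per 1000000 distinct fragments of the library (FPM).

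The libraries came from haploid spermatids that were sorted alive from testes of Mus musculus by Hoechst and propidium iodide staining. KO mice were hemizygous ΔH2A.B/Y males of a single CRISPR/Cas9 line with lesions in all 3 X-linked H2A.B genes, and WT mice were their +/Y male siblings. Both genotypes came from heterozygous mothers backcrossed to C57BL/6J for 5 to 8 generations, and the 2 sibling pairs were 2 months old and had not mated. AutoCUT&RUN, an automated method in which an antibody tethers a nuclease that releases the chromatin around it, was carried out against 3 histone modifications (H3K4me3, H3K27me3, and H3K9me3) or with control IgG, with replicate 1 and replicate 2 in each of 8 groups, 16 libraries in all.

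The TSSK proteins are serine/threonine kinases of the CAMK group, on the same branch as the AMPK-related kinases. They are made almost entirely in the testis, where their transcripts appear after meiosis, and they act in sperm head and flagellum assembly. H3K4me3 marks active or poised gene starts, H3K27me3 is the Polycomb mark of silenced developmental genes, and H3K9me3 marks constitutive heterochromatin. H2A.B is a short histone variant of male germ cells, and the study compared KO and WT to ask whether its loss changed germ-cell chromatin across the genome.

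Depth differed widely between targets. H3K4me3 libraries held 784360 to 3394830 distinct fragments, H3K27me3 libraries 200457 to 3806026, H3K9me3 libraries 5009169 to 6746382, and IgG libraries only 159611 to 270598. A single fragment was therefore worth 0.295 to 1.27 FPM in H3K4me3 and 3.70 to 6.27 FPM in IgG, and a count of 0 allowed up to 11.1 to 18.8 FPM in an IgG library. Intervals and limits were made from counts, so they cover counting error only and not the spread between animals or libraries. The fragments carry no molecular identifiers. The cell type was checked against marker genes. All 10 spermatid markers were called higher in H3K4me3 than in IgG, as were 71.5% of all genes, and their H3K4me3 levels summed to between 126 and 191 FPM per library. The call was also made at 2 of the 6 spermatogonial markers (Gfra1 and Nanos3) and 2 of the 4 Sertoli markers (Amh and Gata4), and the spermatid marker Prm1, at 1.54 FPM, was below the spermatogonial marker Kit, at 2.44 FPM. The 6 spermatogonial markers summed to between 2.95 and 17.8 FPM of H3K4me3, the 4 Sertoli markers to between 1.27 and 4.45, and the 4 Leydig markers to at most 1.77. Cyp11a1 was at 0 in all H3K4me3 libraries. Over the bodies of the H2A.B genes, single libraries had 0 to 4 fragments in either genotype, and the lesions are shorter than these genes, so the counts do not check the genotype.

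Tssk1 and Tssk2 are neighbours on chromosome 16 and both lack introns. Their products bind the substrate TSKS and are needed for male fertility in mice. Tssk1 (ENSMUSG00000041566.3) lies at chr16:17894223-17897922 on the + strand and is 3700 bp long. It is nested within Dgcr2, which is transcribed from the opposite strand, and it overlaps 1 Dgcr2 exon. Tssk2 (ENSMUSG00000045521.7) lies at chr16:17898637-17900024 on the + strand, and the start of Dgcr2 is 75 bp upstream of its own start. The pair is alike in sequence, and 193 of the 1977 words of 25 bases (9.76%) in the Tssk1 window, the length of a read, also occur in the Tssk2 window, so fragments in these stretches could have been placed at either gene. No such word was shared by any other 2 members. Tssk3 (ENSMUSG00000000411.7, chr4:129489014-129491022, - strand, 2 exons) encodes a small family member that acts after meiosis, and Fam229a starts 168 bp upstream in the opposite direction. Tssk4 (ENSMUSG00000007591.15, chr14:55650184-55652539, + strand, 7 transcripts of 3 to 4 exons) encodes the kinase that phosphorylates the flagellar protein ODF2. Tssk5 (ENSMUSG00000060794.8, chr15:76371952-76374938, - strand, 3 transcripts of 2 to 8 exons) is a little-studied member. Tssk6 (ENSMUSG00000047654.6, chr8:69902184-69903518, + strand, 1 exon) encodes a kinase required for the exchange of histones for protamines. Ndufa13 and Yjefn3 start 374 and 528 bp downstream of the Tssk6 start, on the opposite strand, so fragments at Tssk2, Tssk3, and Tssk6 cannot be told apart from those of these neighbours. Tssk1, Tssk4, and Tssk5 shared their windows with no other annotated start.

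The 250 bases upstream of the RefSeq starts were searched, since CREM, a transcription factor of spermatids, acts through the cAMP response element TGACGTCA. Tssk5 was named in no entry, and 5 of the 6 genes matched. None of the 5 held the exact element, which 1.55% of 32851 promoters held on either strand. Tssk1 and Tssk2 were the members with a site of at most 1 mismatch, which 10.6% of all promoters held. Both genes held the same variant, G5T with positions counted from the 5′ end of the element, and Tssk1 held a second site with C4A, which is the same variant read from the other strand. CCAAT was found upstream of Tssk3 and Tssk4 (33.8% of promoters), GGGCGG upstream of Tssk6 (32.7%), and TATAAA upstream of none of the 5 (12.4%). CpG dinucleotides numbered 2, 4, 9, 1, and 13 upstream of Tssk1, Tssk2, Tssk3, Tssk4, and Tssk6, against a median of 6. At least as many CpG as at Tssk1, Tssk2, and Tssk4 were found in 81.2%, 62.2%, and 92.1% of promoters. The RefSeq start of Tssk3 lies 252 bp inside the gene as GENCODE annotates it, so the stretch searched there lies within the Tssk3 gene. A match describes the letters only. The stretches below are 30 bases of RefSeq's GRCm38.p6, on the + strand, 5′ to 3′, with the CREM-type variants in capitals for Tssk1 (chr16:17894151-17894180) and Tssk2 (chr16:17898568-17898597) and CCAAT in capitals for Tssk4 (chr14:55650059-55650088). They are shown because the pair on chromosome 16 shares a variant that Tssk4 does not have.
Tssk1: tttgTGACTTCAcccacTGAAGTCAcctgg
Tssk2: gcccagctttaTGACTTCAttcgctggtca
Tssk4: caagctttgtggCCAATgatgaataaaggt

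The first comparison asked which mark the Tssk genes carried in spermatids. All 6 carried H3K4me3, with far fewer fragments of H3K27me3 and H3K9me3. Over the 6 windows and the 4 libraries of each target, 1119 H3K4me3 fragments were counted, against 18 of H3K27me3, 41 of H3K9me3, and 5 of IgG. As depth differed, these were 0.0145%, 0.000237%, 0.000177%, and 0.000632% of the distinct fragments. The IgG share was larger than that of either silencing mark, but it rests on 5 fragments, 3 of them from KO replicate 1. The order of these 3 small shares is therefore not settled. The members' median H3K4me3 level was 22.3 FPM, and the median of all 21938 genes was 3.24 FPM. For H3K27me3 these medians were 0.152 and 0.351 FPM. For H3K9me3 the members' median of 0.246 FPM was the higher one, against 0.148 FPM over all genes, and Tssk1 (0.552 ± 0.245 FPM) and Tssk2 (0.594 ± 0.170 FPM) lay above 85.0% and 86.0% of genes. In IgG the members' median was 1.09 FPM, against 0 over all genes. There Tssk1 and Tssk2 lay above 78.3% and 87.3% of genes, from 1 and 2 fragments. These IgG counts are too few to tell whether their H3K9me3 ranks stand out from the control.

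Tssk1 had the highest H3K4me3 level of the family, with 33.4 and 37.1 FPM in KO replicates 1 and 2 and 20.4 and 35.8 FPM in WT (45, 126, 16, and 78 fragments). Its mean of 31.7 ± 7.67 FPM (SD, n = 4) exceeded that of 98.6% of genes. Tssk3 had 26.7 and 33.9 FPM in KO and 19.1 and 26.1 FPM in WT (36, 115, 15, and 57 fragments). Its mean of 26.5 ± 6.03 FPM was above that of 96.1% of genes. Tssk2 had 23 and 32.7 FPM in KO and 19.1 and 24.8 FPM in WT (31, 111, 15, and 54 fragments), a mean of 24.9 ± 5.71 FPM and a level above that of 94.6% of genes. Each of these 3 genes thus exceeded at least 94.6% of starts, and the other 3 were lower.

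Tssk4 had 25.2 and 20.3 FPM in KO and 15.3 and 17.9 FPM in WT (34, 69, 12, and 39 fragments), with a mean of 19.7 ± 4.23 FPM. Tssk6 had 20.8 and 28.0 FPM in KO and 10.2 and 19.7 FPM in WT (28, 95, 8, and 43 fragments), with a mean of 19.7 ± 7.30 FPM. Both means exceeded those of 86.9% of genes. Tssk5 was the lowest, with 14.1 and 11.5 FPM in KO and 15.3 and 10.1 FPM in WT (19, 39, 12, and 22 fragments). Its mean was 12.7 ± 2.38 FPM, above that of 71.1% of genes.

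**Figure D1:**
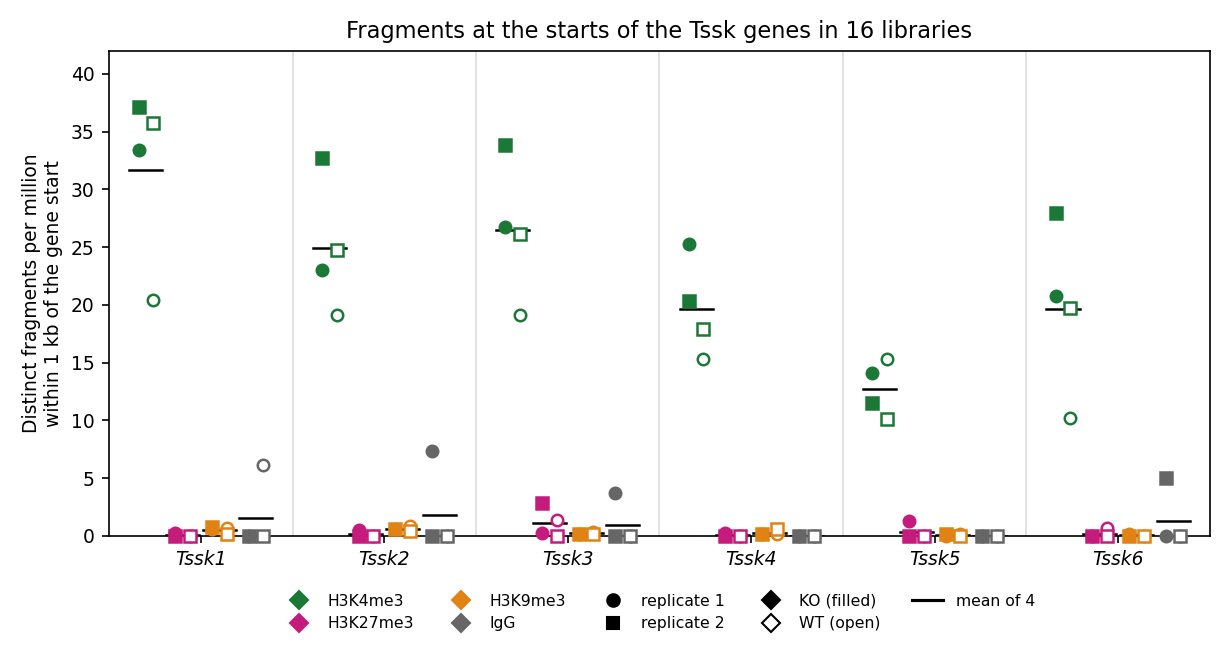
Distinct fragments within 1 kb of the start, in FPM, for each Tssk gene (y axis) in the 16 libraries, with colours for the 4 targets, filled symbols for KO, open symbols for WT, circles for replicate 1, squares for replicate 2, and bars for the mean of 4 libraries. H3K4me3 ranged from 10.1 FPM (Tssk5) to 37.1 FPM (Tssk1), and most of the other points lie at or near 0, where 1 IgG fragment alone is worth at least 3.70 FPM.

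Neighbours in this order were hard to separate. Within libraries, Tssk1 exceeded Tssk3 by 0.25 ± 0.17 on the log2 scale (SD of 4 within-library differences) and did so in 4 of 4 libraries. The next steps, Tssk3 over Tssk2 (0.086 ± 0.092), Tssk2 over Tssk4 (0.34 ± 0.35), Tssk4 over Tssk6 (0.066 ± 0.46), and Tssk6 over Tssk5 (0.56 ± 0.82), were no larger than their spread. Between the ends of the order, Tssk1 was above Tssk5 by 1.29 ± 0.64 in 4 of 4 libraries (exact two-sided sign-flip permutation test, p = 0.125, the smallest p that 4 libraries allow). Both genes were picked as the ends from the means of these same libraries, so the test gives no independent support for the direction.

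With all 16 libraries in a single limma-voom fit, 6 of 6 members were called higher in H3K4me3 than in IgG, as were 71.5% of the 18428 genes tested, so the call itself does not set the family apart. Benjamini-Hochberg adjusted p-values of the members ran from 4.40e-08 for Tssk4 to 3.76e-05 for Tssk3. With the offset used, a count of 0 takes the same value in every library, so the IgG counts of 0 at Tssk4 and Tssk5 added no spread. Their SEs were 0.38 and 0.54, against 0.73 to 0.83 at the other members, so the order of these p-values does not rank the genes. In pooled libraries H3K4me3 exceeded IgG at Tssk1 27.2-fold (95% counting interval 4.84 to 1078), at Tssk3 22.9-fold (4.07 to 908), at Tssk6 17.9-fold (3.16 to 709), and at Tssk2 10.8-fold (2.96 to 90). These intervals are wide because the 4 IgG libraries together held 1, 1, 1, and 2 fragments there. Tssk4 and Tssk5 had 0 IgG fragments, and with a floor of 3 counts over the group their H3K4me3 levels were at least 5.27-fold and at least 3.15-fold higher.

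H3K4me3 also exceeded the other 2 modifications at 6 of 6 members. The same H3K4me3 libraries entered each of these comparisons. Of all genes, 57.3% were called higher in H3K4me3 than in H3K27me3 and 66.7% higher than in H3K9me3. The pooled ratio of H3K4me3 to H3K27me3 was lowest at Tssk5, at 18.2-fold (7.51 to 57.3, adjusted p = 1.86e-06), and at Tssk3, at 31.5-fold (15.0 to 79.1, adjusted p = 3.00e-05). The pooled ratio to H3K9me3 was lowest at Tssk2, at 45.3-fold (26.4 to 84.2, adjusted p = 1.09e-05), and at Tssk1, at 61.2-fold (35.2 to 116, adjusted p = 5.57e-06).

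The few fragments of the silencing marks were not spread evenly over the family. H3K27me3 fragments summed over the 4 libraries to 1, 2, 7, 1, 5, and 2 at Tssk1 to Tssk6. The 7 at Tssk3 came from 3 libraries, while the 5 at Tssk5 all came from KO replicate 1. H3K9me3 fragments summed to 13, 14, 5, 6, 2, and 1, so that 27 of 41 lay at the adjacent pair Tssk1 and Tssk2. Tssk1 had 4 and 4 H3K9me3 fragments in KO and 4 and 1 in WT, and Tssk2 had 4 and 3 in KO and 5 and 2 in WT. Neither mark was called above IgG at any member (0 of 6 in each, at 34.2% of all genes called higher in H3K27me3 and 10.4% in H3K9me3). With 1 to 7 H3K27me3, 1 to 14 H3K9me3, and 0 to 2 IgG fragments per member, these tests had little power. The absence of a call therefore says little about these genes. At an unadjusted p under 0.05, 0 of 6 passed for H3K27me3 and 1 of 6, Tssk4, for H3K9me3. Over the 18428 genes, 7944 and 3959 met this criterion in either direction. limma-trend called 0 members in each, and 5864 and 1153 genes higher than in IgG. The unadjusted p-value at Tssk4 rests on 6 H3K9me3 fragments and on IgG counts of 0, which take the same value in every library and add no spread.

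The extent of H3K4me3 around the start differed between members. Contiguous 250-bp bins, each with at least 5 pooled fragments and with single lower bins bridged, formed a domain around each start. Tssk1 and Tssk2 lay in a single domain of 15.0 kb, chr16:17888723-17903722, which also held the starts of Gm20518 and Dgcr2 and 1547 H3K4me3 fragments. The domain measured 8.75 kb at Tssk3, 7.75 kb at Tssk6, 7 kb at Tssk4, and 3.25 kb at Tssk5. Each covered the whole gene except at Tssk5, where it ran from 1000 bp upstream to 2250 bp downstream of the start and ended within the gene. The cut of 5 fragments was the same for every gene, so a length also depends on the level, which was lowest at Tssk5. Domain lengths were not computed for other genes. Across the Tssk1 and Tssk2 domain, 12 H3K27me3, 57 H3K9me3, and 10 IgG fragments were found. Outside the domains single bins differed, as upstream of Tssk3, where H3K27me3 reached 4.13 ± 3.94 FPM (20 fragments) in a bin with 0.074 FPM of H3K4me3.

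Of the H3K4me3 fragments within 2 kb of the start, 45.6% at Tssk2, 51.1% at Tssk1, 51.3% at Tssk4, and 54.5% at Tssk6 lay within 1 kb, close to the 50% of an even spread. Tssk3 (58.8%) and Tssk5 (70.8%) were more concentrated. The median over the 10131 genes with at least 50 fragments was 61.7%, and 5 of the 6 members lay below it. Only 6.01% of these genes had a smaller share than Tssk2, and 71.2% had a smaller share than Tssk5. This placing depends on the window. For the share within 500 bp the median was 33.6%, and Tssk5 (43.1%) and Tssk6 (34.2%) lay above it. Tssk3 (33.2%) lay just below it, and Tssk4 (27.3%), Tssk1 (24.5%), and Tssk2 (21.8%) were lower. For the share within 1 kb, single libraries ranged from 39.7% to 47.0% at Tssk2 and from 61.3% to 76.5% at Tssk5. Both genes were picked as the ends from these same libraries, so the lack of overlap gives no independent support. Single libraries of Tssk6 ran from 42.1% to 62.2% and overlapped both ranges.

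**Figure D2:**
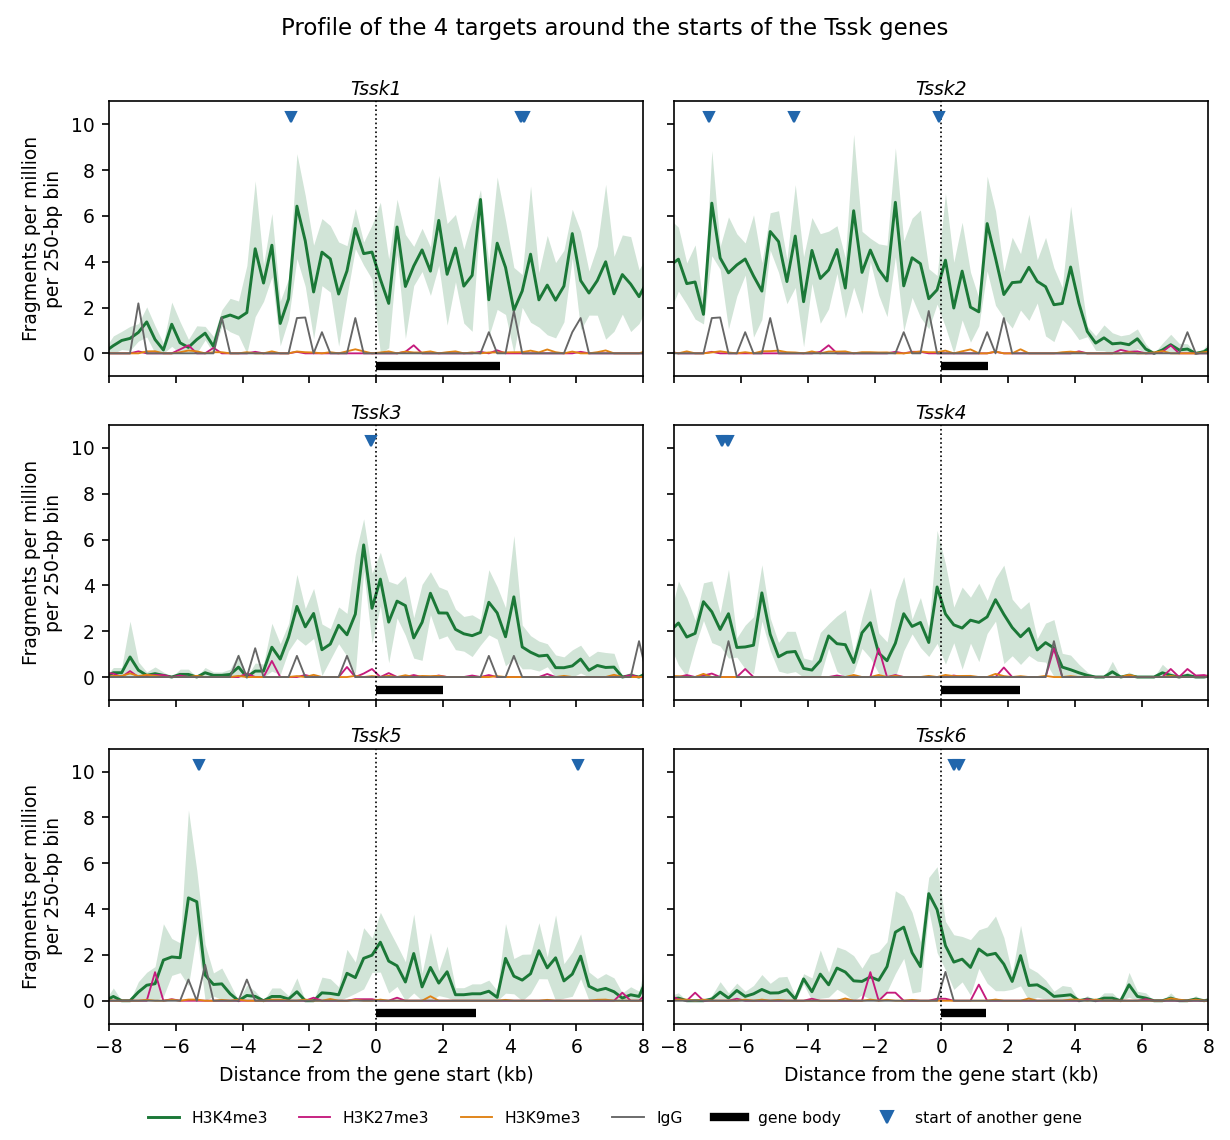
Fragments in FPM per 250-bp bin (y axis) by distance from the gene start in kb in the direction of the gene (x axis), as the mean of 4 libraries for each of the 4 targets, with the SD shaded for H3K4me3, black bars for the gene body, and triangles for starts of other genes. The H3K4me3 domain is 15.0 kb long around Tssk1 and Tssk2 and 3.25 kb long around Tssk5, and within each domain the other targets had far fewer fragments in all.

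The bin with the highest mean H3K4me3 within each domain was also located. It was the bin just upstream of the start at Tssk4 (3.93 ± 2.46 FPM) and just downstream of it at Tssk5 (2.55 ± 1.31 FPM), and neither gene has another start within 1 kb. The Tssk4 bin 1500 to 1750 bp downstream had 3.38 ± 0.94 FPM, and the Tssk5 bin just upstream of the start had 1.99 ± 0.75 FPM. Each lay within the spread of the highest bin of its gene, so neither position is settled. In the shared domain, the highest bin counted from Tssk1 lay 3000 to 3250 bp downstream of its start (6.72 ± 0.43 FPM). Counted from Tssk2 it lay 1250 to 1500 bp upstream (6.59 ± 2.38 FPM), so neither of these starts held the peak. At Tssk3 and Tssk6 the highest bin lay 250 to 500 bp upstream, with 5.77 ± 1.14 and 4.67 ± 0.71 FPM. Within 1 kb, 42.4% (Tssk5) to 61.5% (Tssk6) of the fragments were upstream of the start. Between genotypes they differed most at Tssk2, with 68.1% in WT and 40.1% in KO, and at Tssk3, in the other direction, with 40.3% and 58.3%, and these differences were not tested. Gene bodies carried the mark as well. Per kb of gene body, H3K4me3 measured 16 ± 2.41 FPM at Tssk1, 11.8 ± 2.22 at Tssk3, 11.7 ± 6.04 at Tssk2, 10.1 ± 3.05 at Tssk4, 7.40 ± 3.15 at Tssk6, and 4.55 ± 0.95 at Tssk5. Per kb of start window the same genes had 15.8, 13.2, 12.4, 9.84, 9.83, and 6.37 FPM. The first 1 kb of each gene lies within the start window, so both measures share fragments and were not compared by a test. The bodies of the 6 genes held 0 to 5 H3K27me3, 0 to 15 H3K9me3, and 0 to 1 IgG fragments over 4 libraries.

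The second comparison asked whether the loss of H2A.B altered the mark at these genes. No change was called, and the KO means were somewhat higher. The 4 libraries ranked KO replicate 2, KO replicate 1, WT replicate 2, and WT replicate 1 in the H3K4me3 level summed over the family, at 163, 143, 134, and 99.4 FPM. The groups did not overlap in this sum, but the KO and WT means differed by 0.40 on the log2 scale beside an SD between replicates of 0.24, and the exact two-sided permutation test gave p = 0.333, the smallest that 2 against 2 libraries allow. KO exceeded WT by 0.53 in sibling pair 1 and by 0.28 in pair 2. Over all genes tested, the median difference was 0.31 and 0.10 in the same pairs.

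By gene, the fitted KO minus WT differences in H3K4me3 were 0.55 ± 0.38 (log2, SE) at Tssk6, 0.41 ± 0.36 at Tssk4, 0.34 ± 0.35 at Tssk3, 0.30 ± 0.36 at Tssk1, 0.25 ± 0.35 at Tssk2, and 0.12 ± 0.38 at Tssk5. limma-voom called 0 of 6 members, with adjusted p-values from 0.987 to 0.996, beside 0% of the 12780 genes tested. At an unadjusted p under 0.05 there were 432 genes, and no member was among them. limma-trend also gave 0 calls, and 17 genes, none of them a member, were called without WT replicate 2. The median over all tested genes was 0.19, and after scaling to the median ratio it was 0.0044. On that scale Tssk5 was at -0.042 and the other 5 members ran from 0.042 to 0.34. Both KO libraries lay above both WT libraries at 3 of 6 members (Tssk3, Tssk4, and Tssk6), as they did at 27.8% of the genes tested, and the genotypes overlapped at Tssk1, Tssk2, and Tssk5. At Tssk6 the difference was 1.03 in pair 1 and 0.51 in pair 2, whereas at Tssk5 it was -0.12 and 0.19.

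Library properties moved with the genotype. Of all distinct H3K4me3 fragments, 20.6% and 18.2% lay in gene-start windows in KO and 16.6% and 16.9% in WT. WT replicate 1, the lowest library at every member except Tssk5, was also the shallowest H3K4me3 library and had the largest share of repeated fragments, 83.4%, where the others had 49.5% to 76.9%. The part of these properties in the differences was not tested. Without WT replicate 1 the family difference fell to 0.19, and without WT replicate 2 it was 0.62. At Tssk1 the fitted difference was -0.024 without WT replicate 1 and 0.74 without WT replicate 2.

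The silencing marks gave no call either. No member passed the minimum of 10 H3K27me3 fragments, and 0% of the 6492 genes tested were called (29 had p under 0.05 before adjustment, and limma-trend called 0). Summed over the family, H3K27me3 was 2.63 and 2.81 FPM in KO and 2.07 and 0 FPM in WT, from 10, 2, 6, and 0 fragments. WT replicate 2 is the shallowest H3K27me3 library, and its count of 0 allows up to 15.0 FPM. The difference of 1.68 FPM had an exact permutation p of 0.333. For H3K9me3, Tssk1 (0.49 ± 0.99) and Tssk2 (-0.036 ± 0.77) were tested, and neither was called, beside 0% of 4290 genes (77 had p under 0.05 before adjustment, and limma-trend called 0). The H3K9me3 sums of 1.63 and 1.91 FPM in KO and 2.11 and 1.4 FPM in WT overlapped, with a difference of 0.037 on the log2 scale (exact permutation test, p = 1). No member passed the filter in IgG, where 0% of 85 genes were called (none by limma-trend, and 0 with p under 0.05 before adjustment).

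The third comparison concerned fragment length. Small fragments, of up to 120 bp, are shorter than nucleosomal DNA, and large ones, of at least 150 bp, span at least a nucleosome, and the study set these classes against each other between genotypes. In whole H3K4me3 libraries there were 0.533 and 0.637 small fragments per large one in KO and 0.308 and 0.324 in WT. At the Tssk starts KO had 0.733 and 0.589 small per large fragment, and WT had 0.721 and 0.300. Only pair 2 separated at the family, by 0.97 on the log2 scale, while pair 1 differed by 0.025. Over all 6 genes the mean difference of 0.50 was smaller than the SD between replicates of 0.65, and the exact two-sided permutation p was 0.667. In WT replicate 1, Tssk1 alone held 12 of the family's 31 small fragments and 3 of its 43 large ones. Over the other 5 genes, pair 1 had 0.591 small per large fragment in KO and 0.475 in WT, and pair 2 had 0.568 and 0.273. Both KO values lay above both WT values there, and since Tssk1 was set aside after its values were seen, no test was made.

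Tssk6 had the largest fitted difference, 1.36 ± 0.61 on the log2 scale, with 39.3% small fragments in KO (44 small and 68 large, 95% Wilson interval 30.7% to 48.5% of these) and 19.1% in WT (9 and 38, 10.4% to 32.5%). In pair 2 KO had 0.787 small per large fragment and WT had 0.219, whereas both libraries of pair 1 had 0.333. The pair 1 ratios came from 7 small and 21 large fragments in KO and only 2 and 6 in WT, too few to tell whether that pair differed. Tssk3 followed with 1.0 ± 0.49, with ratios of 0.944 and 0.569 in KO and 0.400 and 0.293 in WT, higher in KO in both pairs. Tssk4 (0.86 ± 0.55) was likewise higher in KO in both pairs, with ratios of 0.524 and 0.853 against 0.375 and 0.393. WT replicate 1 held only 4 small and 10 large fragments at Tssk3 and 3 and 8 at Tssk4. Whole libraries were also higher in KO in both pairs, and the share of all genes with this direction was not computed.

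Tssk1, Tssk2, and Tssk5 showed smaller differences, of 0.55 ± 0.44, 0.48 ± 0.52, and -0.17 ± 0.79. Tssk2 was also higher in KO in both pairs, with ratios of 0.750 and 0.427 against 0.667 (6 small and 9 large fragments) and 0.243. Tssk1 had the highest ratio of the family in a single library, 4.0 in WT replicate 1, which rested on 12 small and 3 large fragments, while the other 3 libraries had 1.47, 0.667, and 0.388. Tssk5 held 19 small fragments in all 4 libraries and is the thinnest of the 6. None of the 6 was called (adjusted p from 0.200 to 0.901), where 0.274% of 9864 genes were called higher in KO, that is 27 genes, or 129 with the sibling pair as a block. At an unadjusted p under 0.05 there were 2016 genes, Tssk3 and Tssk6 among them. The median over all genes was 0.79 on this scale, and 3 members, Tssk3, Tssk4, and Tssk6, lay above it. Relative to each library's median, the members ran from -0.91 at Tssk5 to 0.52 at Tssk6.

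**Figure D3:**
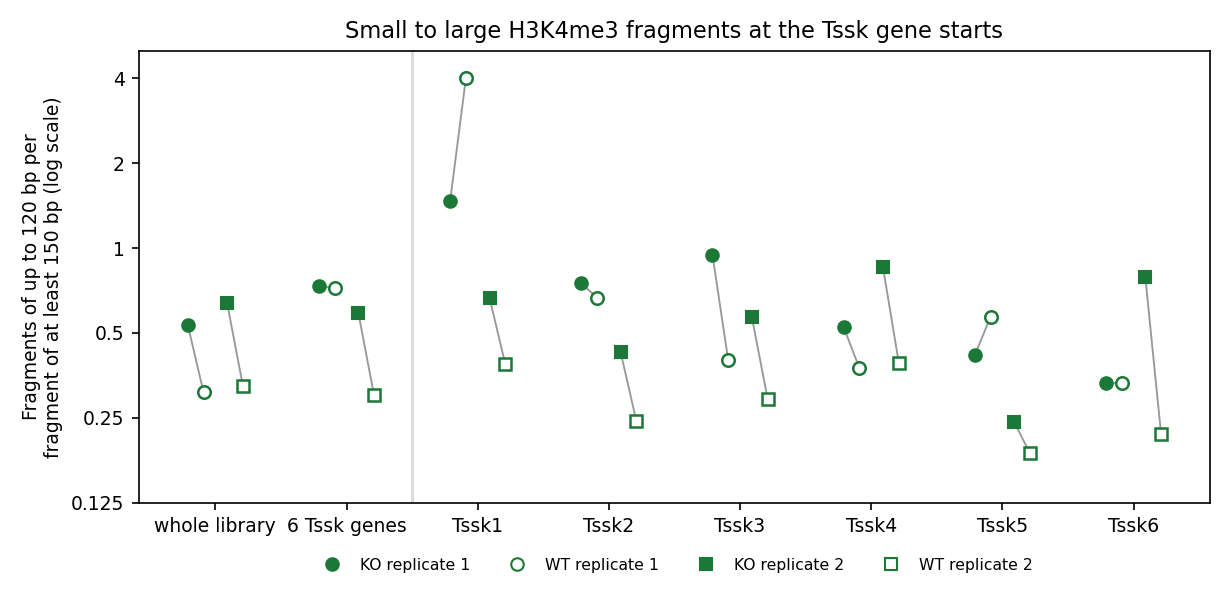
Small H3K4me3 fragments (up to 120 bp) per large fragment (at least 150 bp) on a log scale (y axis) for whole libraries, for the 6 Tssk genes together, and for each gene, with filled symbols for KO, open symbols for WT, circles for replicate 1, squares for replicate 2, and lines joining the siblings of a pair. Whole libraries separate by genotype in both pairs, and the Tssk sum separates in pair 2 only (0.589 against 0.300).

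The Tssk genes were also set beside their relatives and partners. Among 16 AMPK-related kinase genes, 15 were called higher in H3K4me3 than in IgG, beside 71.5% of all genes, but their median was 6.69 FPM, and the highest, Mark2, a regulator of cell polarity, reached 26.8 ± 8.79 FPM. In H3K27me3, 4 of the 16 were called higher than in IgG, a share below the 34.2% of all genes. These were Hunk (33.6 ± 4.50 FPM of H3K27me3), Nuak1 (21.3 ± 9.44), Prkaa2, a catalytic subunit of AMPK (21.2 ± 12.2), and Mark4 (4.54 ± 3.50). The call was made at 0 of 6 Tssk genes, but with 1 to 7 H3K27me3 and 0 to 2 IgG fragments each it had little power there. Mark2 was called lower in H3K27me3 than in IgG. Hunk had 277 H3K27me3 fragments over 4 libraries, whereas the 6 Tssk genes together had 18. The same IgG libraries entered both calls, and the difference between the lists was not tested.

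The partner and pathway genes had a median H3K4me3 level close to that of the Tssk genes but a wider range. Of 12 such genes, 11 were called higher in H3K4me3 than in IgG, beside 71.5% of all genes, with a median of 20.6 FPM against 22.3 FPM for the Tssk genes. In H3K27me3 against IgG, 0 of the 12 were called higher, beside 34.2% of all genes, and 3 (Tsacc, Odf2, and Prkaca) were called lower. Their H3K27me3 and IgG fragments over 4 libraries each were 1 and 2 at Tsacc, 1 and 7 at Odf2, and 2 and 2 at Prkaca. These calls thus rest on few fragments in shallow IgG libraries. Pdpk1, a kinase that phosphorylates TSSK3 in vitro, was the highest at 34.0 ± 5.67 FPM, followed by Tsacc, the co-chaperone that activates TSSK kinases, at 30.7 ± 7.14 FPM. Crem (24.8 ± 7.01 FPM), Hspa2, a testis chaperone (21.6 ± 2.48), and Tsks, the shared substrate (19.5 ± 10), lay in the range of the Tssk genes. Prkaca, a catalytic subunit of protein kinase A (4.67 ± 1.46 FPM), lay below that range, as did Hsp90aa1, an HSP90 gene, which was the lowest at 0.862 ± 0.70 FPM and the exception to the call. In KO against WT, 0 of the 11 partner genes and 0 of the 15 relatives tested in H3K4me3 were called.

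**Figure D4:**
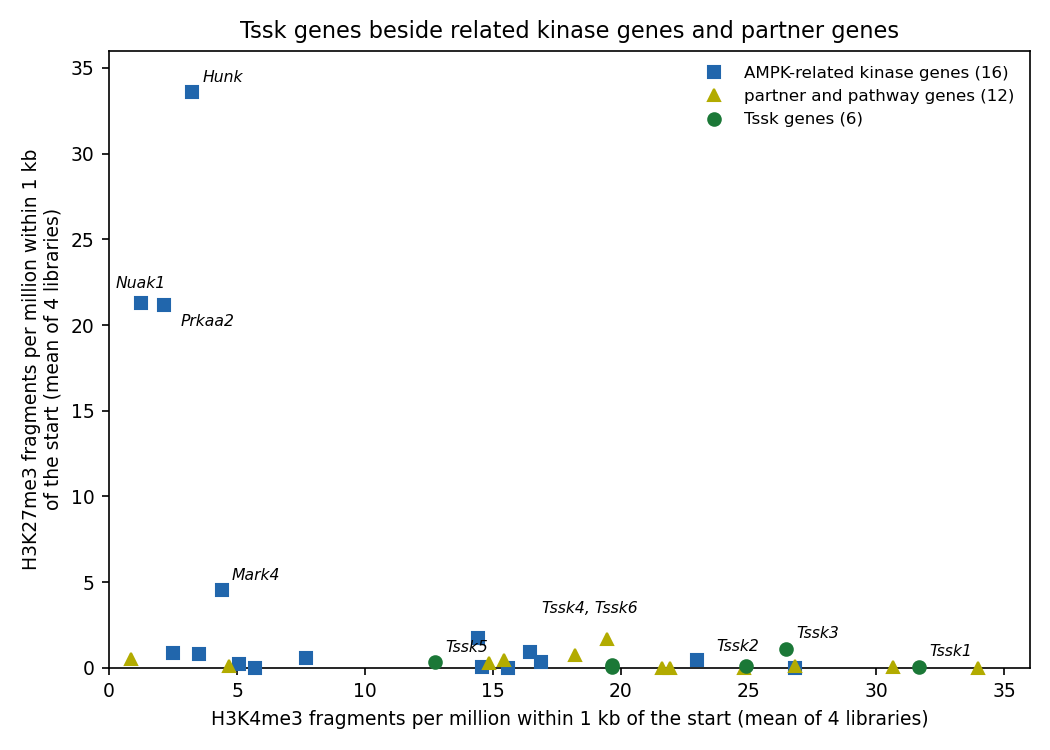
Mean H3K4me3 (x axis) and mean H3K27me3 (y axis) in FPM within 1 kb of the start, over 4 libraries each, for the 6 Tssk genes, 12 partner and pathway genes, and 16 AMPK-related kinase genes. The Tssk genes lie along the bottom from 12.7 to 31.7 FPM of H3K4me3, and Hunk, Nuak1, and Prkaa2 lie at 21.2 to 33.6 FPM of H3K27me3.

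Over the 16 libraries, the genes whose log2 levels tracked the family mean most closely were Trim37, Atf6b, Gm29427, Gcc2, and Ttk, with Pearson's r of 0.988 to 0.989. Likeness of this kind was common, since 2982 of 18418 genes (16.2%) had an r over 0.95. The correlation rests on the contrast of H3K4me3 libraries with the rest, which the libraries share, and is given as a description.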

How the data were processed

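Paired-end reads of 25 bp were aligned to mm10 by the authors with Bowtie2 (version 2.3.4.3 in the submitters' processing notes, whereas the paper's methods name an earlier version). The authors deposited, per library, the chromosome, start, end, and length of each mapped fragment, unscaled, with replicates unpooled. The files hold positions and lengths, not counts. The methods state that duplicates were removed, but 33.6% to 83.4% of fragments per library repeated the coordinates of another, and each set of coordinates was counted once here. The members and lists were chosen with earlier results of these data known, although the rule for the members is by name alone, and genes were named by list, as called or as highest and lowest.

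Fragments were assigned by midpoint. limma-voom was fitted on genes with at least 10 fragments, with library totals as scaling and an offset of 0.5 in proportion to them, per target for KO versus WT and over all 16 libraries between targets. Small to large ratios, with 0.5 added to each, were tested with limma, weighted by counting variance. Adjusted p-values are Benjamini-Hochberg values over all genes tested, called under 0.05. The fits were tested on simulated data with 200 genes changed 4-fold. These data were drawn with counting error only, so they do not show how the fits perform with spread between animals. Sums over the family were compared by exact permutation tests, on the log2 scale except for H3K27me3, where a library at 0 required FPM. The methods state that sibling pairs served for replicate experiments, and KO and WT replicates of the same number are taken here as a pair. Deviations of paired KO and WT libraries correlated at 0.231 in H3K4me3, 0.166 in H3K27me3, 0.193 in H3K9me3, and 0.216 in IgG. All libraries of replicate 1 carry the same date-like code in their titles, and those of replicate 2 carry another. Sibling pair and anything these codes mark therefore cannot be told apart. Domains, shares within 2 kb, and shared words were added after the levels had been seen. Promoters and sequences were from RefSeq. The alternatives covered fragments, windows, length limits, scaling, filters, offsets, limma-trend, the sibling pair or animal as a block, and leaving out libraries. Fits were made in R 4.3.3 with limma 3.58.1, and counts, exact tests, and plots in Python 3.11.15 (pandas 2.3.3, NumPy 2.4.6, matplotlib 3.10.9, SciPy 1.17.1).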

Additional observations from a re-analysis of the deposited data

How the results depend on the processing

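H3K4me3 was called above IgG, H3K27me3, and H3K9me3 at 6 of 6 members under every alternative that was run, and H3K4me3 gave 0 member calls in KO against WT under each. In H3K9me3 0 members were called in KO against WT, of 0 to 6 tested. H3K27me3 and IgG also gave 0, but under most alternatives no member was tested there, so these counts say nothing of stability. The replicate block, with the sibling pair as a term, left 0 H3K4me3 calls and put Tssk6 at 0.62, and it changed no other call of a member. H3K27me3 was called above IgG at 1 member with windows of 500 bp (Tssk3) and at 1 with windows of 2 kb (Tssk4), and leaving out one replicate of a genotype in all 4 targets at once gave 0 to 1 members (Tssk5 without KO replicate 2). For H3K9me3 against IgG, the same step gave 0 to 1 members (Tssk2 without KO replicate 1). An equal offset of 0.5 in every library put 4 members lower in H3K27me3 and 6 lower in H3K9me3 than in IgG, because 0.5 fragments is worth more in the shallow IgG libraries. Small to large fragments gave 1 call, Tssk6 at 1.57, with windows of 2 kb, where 869 of 10662 genes were called. The calls above IgG over all genes ranged from 8102 to 13490 for H3K4me3, from 4286 to 7004 for H3K27me3, and from 27 to 2531 for H3K9me3. All 3 were lowest with the equal offset, so the shares of all genes given beside member and list calls depend on the offset. Calls higher in KO ranged from 0 to 3087 for the ratio.

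Directions turned in the following cases, none of them called, and the cause was not tested. The H3K9me3 sum was -0.31 with 500-bp windows, -0.059 with any overlap, and -0.00093 with median-ratio scaling, and -0.26 to 0.34 on leaving out libraries. The H3K4me3 difference at Tssk5 was -0.13 with every deposited fragment and -0.042 with median-ratio scaling, and on leaving out libraries it ran from -0.30 to 0.30, and at Tssk1 from -0.024 to 0.74. In H3K9me3, Tssk2 was at 0.027 with 2-kb windows, and Tssk1 was at -0.0015 without WT replicate 2. For small to large fragments, centring on library medians put Tssk1 at -0.33 and Tssk2 at -0.32. Tssk5 was at 0.019 with 2-kb windows, 0.22 over the gene body, and 0.12 with limits of 100 and 140 bp. On leaving out libraries the ratio ran from -2.11 to 1.37 at Tssk1, from -0.47 to 1.10 at Tssk2, from -0.93 to 0.57 at Tssk5, and from -0.13 to 1.13 in the family sum, the lowest values at Tssk1, Tssk2, and in the sum being those without WT replicate 2. Median-ratio scaling could not be run for IgG or between targets, since too few genes had fragments in every library. In H3K27me3 and IgG no member passed the filter for KO against WT, with 18 and 5 fragments at the 6 genes in all.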
